A study of Mus musculus with 12 samples.

Results

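The lateral ganglionic eminence (LGE) and the cortex (CTX) of the embryonic mouse forebrain were compared for H3K4me3, the trimethylated lysine of histone H3 that marks active and poised promoters. The comparison used the list of peaks deposited for each tissue, 2 of the 4 lists of the series. These lists rest on 5 of its 12 samples, 2 from LGE and 3 from CTX. All 21951 protein-coding genes were members, ranked by how far the within-list percentile of peak-covered bases within 5 kb of their transcription start sites (TSSs) differed between the lists. The tissue came from wild-type C57BL/6J embryos at embryonic day 12.5 (E12.5) per the study's methods, while the protocol in the labels names E12.5 and E14.5 without tying either age to a library. No treatment or genetic change was applied in either group, and each list was made from 2 biological replicates merged before peak calling, so no value below carries a replicate error and no test between LGE and CTX was possible. The profiles came from CUT&Tag, in which a transposase tethered by an antibody against the mark cuts out the marked DNA for sequencing. The other lists of the series, from the medial and caudal ganglionic eminences (MGE and CGE), were used only to show where the same genes stood in tissue that the ranking did not use.

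The pallial-subpallial boundary divides the dorsal telencephalon, which forms the cortex, from the ventral telencephalon, which forms the ganglionic eminences. Pallial progenitors give rise to glutamatergic neurons under factors such as Pax6, Emx1, Emx2 and Neurog2. Progenitors of the LGE give rise to the GABAergic projection neurons of the striatum and to olfactory bulb interneurons under Gsx2 and the Dlx genes. Gsx2 and Pax6 repress each other's domain across the boundary. A wide H3K4me3 domain that runs into the gene body is a known feature of genes that define a cell type, while most housekeeping promoters carry a domain of moderate width.

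The promoter sequences of 5 genes that separate the lists are shown because a peak of 1 list covers them and a peak of the other does not, or covers less of them. Each is the 250 bases upstream of the RefSeq TSS on the plus strand of GRCm38.p6. Capitals mark a match to TAATTA, the core that many homeodomain factors bind, or to CANNTG, the E-box bound by basic helix-loop-helix (bHLH) factors. Both motifs read the same on either strand and neither can overlap the other. Slc32a1 (chr2:158610508-158610757) encodes the vesicular GABA transporter. Sp9 (chr2:73271676-73271925) encodes a zinc finger factor of striatal neurons. Gsx2 (chr5:75075351-75075600) encodes a homeodomain factor of LGE progenitors. Wnt8b (chr19:44493222-44493471) encodes a Wnt ligand of the medial pallium. Sp5 (chr2:70474673-70474922) encodes a zinc finger factor that is a target of Wnt signalling.
Slc32a1: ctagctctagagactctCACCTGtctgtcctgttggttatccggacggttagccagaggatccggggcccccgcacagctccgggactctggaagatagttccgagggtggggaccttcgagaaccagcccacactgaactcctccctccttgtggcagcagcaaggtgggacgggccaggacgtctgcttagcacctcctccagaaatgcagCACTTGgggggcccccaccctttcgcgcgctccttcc
Sp9: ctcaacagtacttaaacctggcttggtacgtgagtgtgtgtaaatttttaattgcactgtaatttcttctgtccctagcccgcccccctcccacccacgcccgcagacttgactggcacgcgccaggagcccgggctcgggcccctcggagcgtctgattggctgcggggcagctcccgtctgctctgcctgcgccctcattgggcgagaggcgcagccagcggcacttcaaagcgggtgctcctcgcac
Gsx2: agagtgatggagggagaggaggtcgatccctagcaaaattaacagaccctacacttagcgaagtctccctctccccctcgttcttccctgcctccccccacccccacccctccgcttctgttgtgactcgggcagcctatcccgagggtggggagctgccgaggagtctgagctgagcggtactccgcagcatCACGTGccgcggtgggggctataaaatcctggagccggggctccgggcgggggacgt
Wnt8b: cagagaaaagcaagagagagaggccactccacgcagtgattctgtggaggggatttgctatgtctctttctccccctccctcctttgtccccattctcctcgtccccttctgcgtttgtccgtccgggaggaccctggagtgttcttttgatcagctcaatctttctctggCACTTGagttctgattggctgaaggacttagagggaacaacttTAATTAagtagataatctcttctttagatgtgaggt
Sp5: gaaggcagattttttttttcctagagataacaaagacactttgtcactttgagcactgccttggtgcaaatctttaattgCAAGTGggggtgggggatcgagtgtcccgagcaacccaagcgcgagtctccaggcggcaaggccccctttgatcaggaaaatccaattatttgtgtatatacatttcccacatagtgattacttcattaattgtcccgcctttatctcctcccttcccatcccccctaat
An LGE peak covered 250 of the 250 bases at Slc32a1, 78 at Sp9 and 250 at Gsx2, and none at Wnt8b or Sp5. A CTX peak covered 116 bases at Gsx2, 250 at Wnt8b and 250 at Sp5, and none at Slc32a1 or Sp9. The CGE list covered all 250 bases at Sp5 as well, whereas the MGE and CGE lists covered none of those at Wnt8b.

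The LGE list held 17284 peaks with a median width of 1168 bp that covered 21.6 Mb, and the CTX list held 21442 peaks with a median width of 701 bp that covered 16.7 Mb. The median −log10 q of a peak, the peak caller's measure of confidence, was 40.0 in LGE and 8.57 in CTX. The lists hold no read counts, and the read totals that the methods give per library are not used here. Widths and q values can change with depth, so genes were compared by their rank within each list, and the part of depth in the difference between the lists was not tested. A percentile is the mid-rank among all protein-coding genes, and a gene without a covered base stood at 17.9 in LGE and 18.1 in CTX. A value of 0 bases states only that no peak was called there. The peaks of a list carry running numbers, of which 59 are missing in LGE and 31 in CTX, so a 0 beside a missing number was not read as a difference. In dissected tissue, fewer cells that carry the mark and less of the mark per cell cannot be told apart.

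Both lists covered 13659 genes (62.2%; Wilson 95% interval 61.6 to 62.9), LGE alone 442, CTX alone 356 and neither 7494. The ranking was uneven at its ends. A difference of at least 20 percentile points was reached by 948 genes in favour of LGE (4.32% of all genes; interval 4.06 to 4.60) and by 414 in favour of CTX (1.89%; 1.71 to 2.07). At 40 points there were 243 genes on the LGE side and 20 on the CTX side. Most of these genes were marked in both lists, with 674 of the 948 also covered in CTX and 234 of the 414 also covered in LGE. The median difference over all genes was −0.20 points, where differences are given as LGE minus CTX throughout. The intervals cover the counting of genes only. These are the values the ranking itself used and are given as a description.

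**Figure D1:**
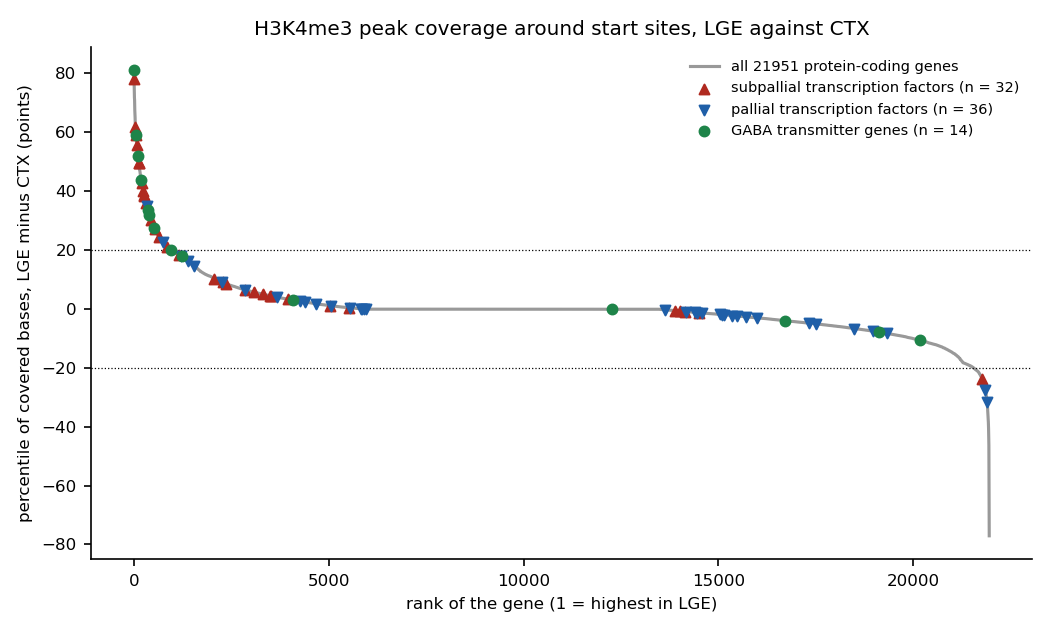
Difference in within-list percentile of covered bases (LGE minus CTX, in points) for 21951 protein-coding genes in rank order (line), with the 32 subpallial transcription factors, 36 pallial transcription factors and 14 GABA transmitter genes as points and dotted lines at 20 points either way. 15 subpallial factors and 7 GABA genes lie above the upper line, and 2 pallial factors lie beyond each line.

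Next to the limit the values were close to each other. On the LGE side Hells (1776 bases in LGE, 950 in CTX), Alx4 (580 and 0) and Paqr5 (579 and 0) lay just inside 20 points. Pax8 (578 and 0) and the overlapping pair Marf1 and Nde1 (2285 and 1137 for each) lay just outside. On the CTX side Mapk3 (1261 and 1401), Slc22a21 (928 and 1037) and 5530401A14Rik lay just inside, and Tmem92 (0 and 210), Lig1 (1299 and 1467) and Rpl11 (1309 and 1484) just outside.

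The subpallial transcription factors, a list of 32 genes that specify ventral telencephalic progenitors or striatal neurons, leaned toward LGE. 15 of the 32 were at least 20 points higher in LGE (46.9%, against 4.32% of all genes) and 1 was higher in CTX, with a median difference of 14.2 points. All 32 were covered in at least 1 list, as were 14457 of the 21951 genes. A gene covered in neither cannot pass the limit, so shares of all genes are a low base for lists of covered genes. Sp9 had the largest difference of the list, with 3033 covered bases in LGE, 0 in CTX, 2973 in MGE and 3110 in CGE. Six3, a homeodomain factor of striatal neuron differentiation, had 6135 bases in LGE and 245 in CTX, with 5226 in MGE and 6793 in CGE, and stood at percentile 99.9 in LGE against 38.4 in CTX. At both genes LGE, MGE and CGE lay far above CTX.

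The Dlx genes, homeodomain factors that drive GABAergic differentiation, lie in pairs. Dlx5 had 3808 bases in LGE and 857 in CTX, and its neighbour Dlx6 had 4836 and 408. Dlx1 had 4003 and 1307, and Dlx2 had 2734 and 1128. All 4 passed 20 points, with differences of 42.5 for Dlx5, 59.0 for Dlx6, 21 for Dlx1 and 24.4 for Dlx2. Windows of neighbouring Dlx genes can take in the same peaks, so the 4 are not independent.

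Among the progenitor factors, Gsx2 had 2189 bases in LGE and 356 in CTX (49.3 points) and Gsx1 had 1176 and 0 (38.7 points). Olig2 had 2706 and 283 (55.6 points) and Olig1 had 1676 and 334 (38.4 points), both bHLH factors of ventral progenitors and of the oligodendrocyte lineage. Among the factors of striatal neurons, Ebf1 had 2425 and 529 bases (49.4 points) and Isl1, a LIM homeodomain factor of the direct pathway, had 2223 and 725 (39.9 points). Foxp1 (4483 and 4986), Meis2 (8719 and 4042) and Sp8 (3649 and 3347) stood above percentile 98 in both lists, a range in which the rank can hardly differ. Prdm13 was the exception toward CTX, with 1285 bases in LGE and 1578 in CTX (−23.9 points).

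**Figure D2:**
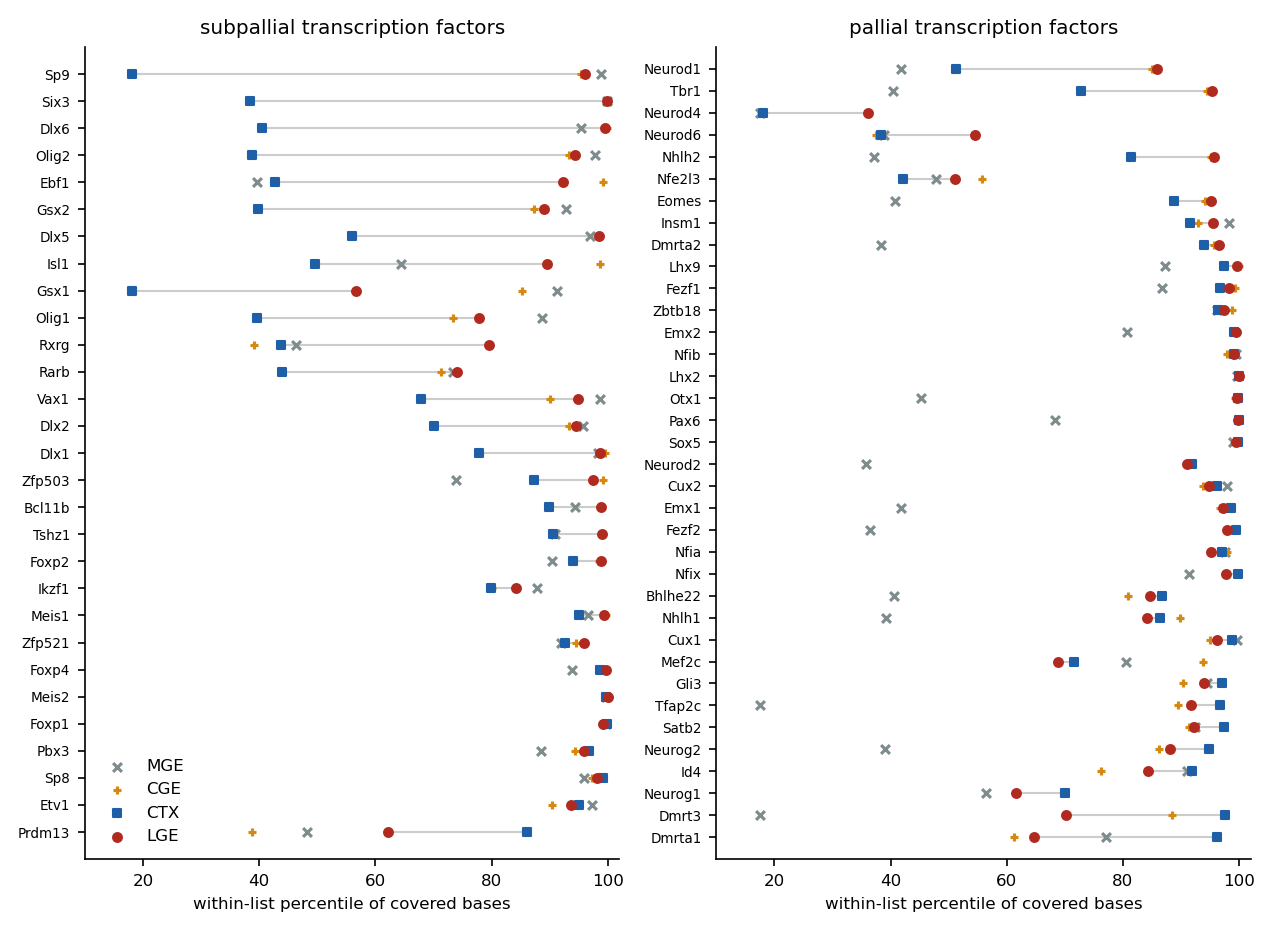
Within-list percentile of covered bases for the subpallial (left) and pallial (right) transcription factors reported here in the LGE (circles), CTX (squares), MGE (crosses) and CGE (plus signs) lists, ordered by LGE minus CTX, with a grey line joining LGE and CTX. The upper left genes, from Sp9 to Dlx1, are at least 20 points apart, whereas most pallial factors have LGE and CTX side by side and many have MGE far to the left.

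The lean of the subpallial factors was seen in covered bases and not in fold. The lists give 1 fold value for a whole peak. The fold rankings here and below therefore compare peaks of unlike width, and they are not a check apart from width. Ranked by the highest fold enrichment of a peak in the window, in place of covered bases, 1 of the 32 was at least 20 points higher in LGE (6.37% of all genes were) and 3 were higher in CTX (5.65% of all genes), and the median difference was −2.86 points. These fold shares of all genes, 6.37% and 5.65%, are the base for every fold count below. Ranked by the highest −log10 q, an alternative chosen after the data were seen, 6 were higher in LGE (3.63% of all genes) and 2 in CTX (3.86% of all genes). Dlx6 shows the contrast, since its highest fold was 1.98 in LGE and 6.48 in CTX while its covered bases were 4836 and 408. The peak maps show the same, with the LGE peak of Dlx5 running from 111 bp before its 5′ end to 3696 bp after it, where the CTX peak ended at 619 bp.

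**Figure D3:**
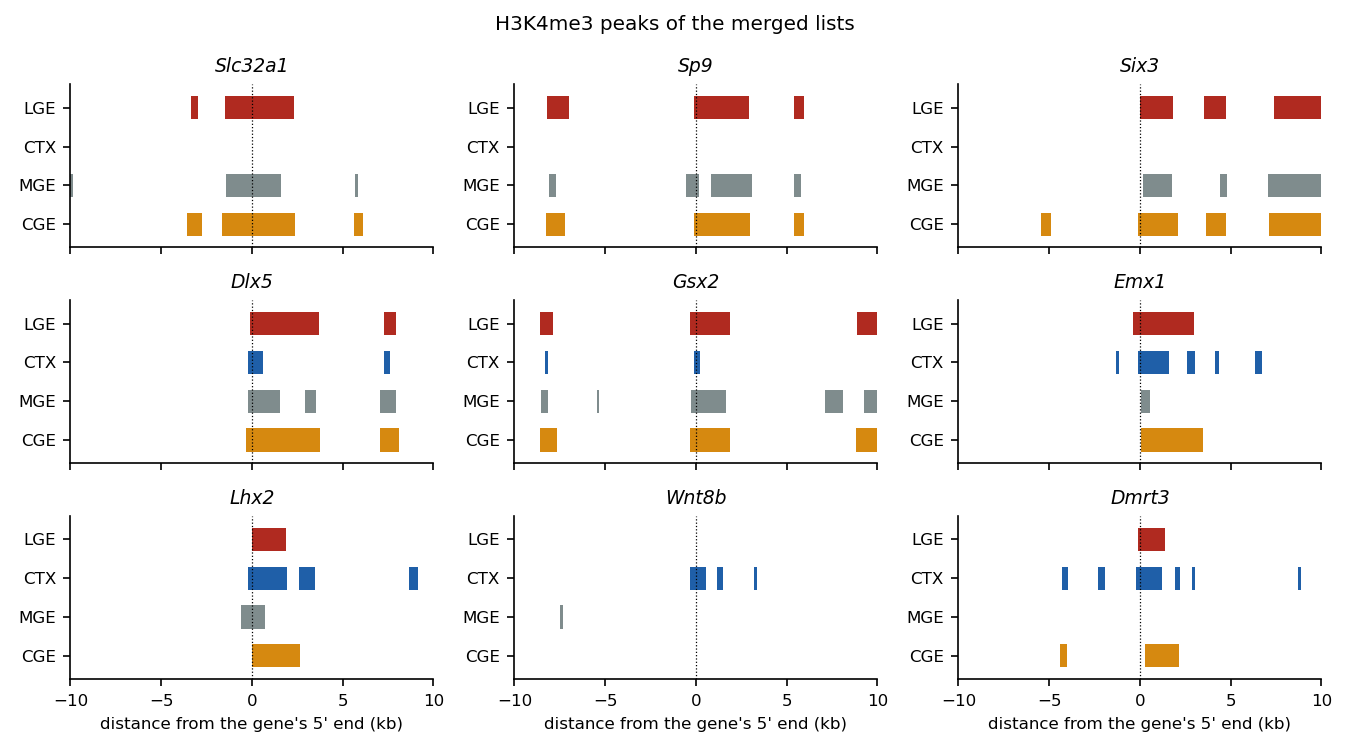
Peaks of the 4 merged lists within 10 kb of the 5′ end of 9 genes (bars; distance in kb in the direction of transcription). At Slc32a1, Sp9 and Six3 no CTX peak is drawn, at Dlx5 and Gsx2 the CTX peaks are shorter than those of LGE, and at Emx1 and Lhx2 both lists have a peak over the 5′ end, with further CTX peaks beyond the LGE one.

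The pallial transcription factors did not mirror this. Of 36 factors of cortical progenitors and glutamatergic neurons, 2 were at least 20 points higher in CTX (5.56%, against 1.89% of all genes). Another 2 were higher in LGE (5.56%), near the 4.32% of all genes. The median difference was −0.69 points. Dmrta1 (1332 bases in LGE, 2355 in CTX, −31.6 points) and Dmrt3 (1460 and 2629, −27.4 points) were the pair higher in CTX, both DMRT-family factors of the dorsomedial pallium. Neurod1 (2000 and 762, 34.7 points) and Tbr1 (2878 and 1187, 22.6 points), which act in new glutamatergic neurons, were the pair higher in LGE. Ranked by fold, neither pair held. Neurod1 stood at −21.9 points, past the limit toward CTX, and Tbr1 at −11.0, while Dmrta1 stood at 6.88 and Dmrt3 at 0.60. In that ranking 1 of the 36 was higher in LGE and 3 in CTX.

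The factors that specify the pallium were broad on both sides of the boundary. Emx1 had 3337 bases in LGE, 2969 in CTX, 495 in MGE and 3453 in CGE. Pax6 had 5724 in LGE, 5534 in CTX, 1062 in MGE and 6739 in CGE. Fezf2, a factor of deep-layer projection neurons, had 3574 in LGE, 3644 in CTX, 180 in MGE and 3905 in CGE. Thus LGE, CTX and CGE lay close together at these genes, and MGE lay apart. Neurog2 (2123, 2169, 340 and 2143 in the same order), Neurod2 (2323, 1894, 138 and 2552) and Otx1 (5361, 4469, 609 and 4985) also had their lowest value in MGE. In all, 24 of the 36 were in the top 10% of genes in LGE, 25 in CTX, 24 in CGE and 12 in MGE.

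By their median percentile the defining markers of LGE were lower in CTX, whereas those of the cortex were not lower in LGE. All 12 LGE markers had covered bases in LGE (percentiles 89.1 to 100.0) and 11 of them had some in CTX (18.1 to 99.9, median 63.1). All 11 cortical markers had covered bases in CTX (38.3 to 100.0, median 94.9), and all 11 also had them in LGE (54.5 to 100.0, median 95.1). In MGE the median of the cortical markers was 40.7. Single markers departed from the medians, such as the LGE marker Foxp1 with 4483 bases in LGE and 4986 in CTX. The part of cortical cells in the dissected LGE was not tested.

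Genes of GABA synthesis, transport and reception had the largest median difference of the 14 lists. 7 of 14 were at least 20 points higher in LGE (50.0%, against 4.32% of all genes), none was higher in CTX, and the median was 23.6 points. Slc32a1 ranked first of all genes, with 4215 covered bases in LGE, 0 in CTX, 3022 in MGE and 4829 in CGE. Gad1 and Gad2, the enzymes that make GABA, had 2883 and 2469 bases in LGE against 129 and 710 in CTX. Thus by covered bases the genes that make GABA and load it into vesicles all stood higher in LGE, by 43.7 points for Gad2 to 80.9 for Slc32a1. By fold Gad1 stood at −0.37 points and Gad2 at −7.13.

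The GABA receptor subunits were split. Gabra5 (1416 bases in LGE, 138 in CTX, 31.9 points) was higher in LGE, as was the GABA-degrading enzyme Abat (1418 and 453, 27.3 points). Gabrb1 (2169 and 2430, −7.92 points) and Gabra2 (1433 and 1365, −10.7 points) lay within the limit. Ranked by fold, 4 of the 14 genes were higher in LGE and 1 in CTX. The latter was Abat, which stood at −35.9 points by fold and at −12.0 by −log10 q.

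Genes of glutamate signalling leaned the same way. 6 of 17 were at least 20 points higher in LGE (35.3%, against 4.32% of all genes) and none in CTX, with a median of 17.0 points. Gria1, an AMPA receptor subunit, had 2231 bases in LGE and 0 in CTX (71.6 points), and Grin2b, an NMDA receptor subunit, had 2106 and 392 (47.5 points). The vesicular glutamate transporters were also higher in LGE, with 3412 and 851 bases at Slc17a6 (41.7 points) and 1657 and 681 at Slc17a7 (29.6 points). When ranked by fold, 2 of the 17 were higher in LGE and none in CTX, and the direction turned at Slc17a6 (−1.07 points), Slc17a7 (−15.2 points) and Grin2b (−9.81 points).

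Most general neuronal genes lay within the limit, and the exceptions were all toward LGE. Of 15 pan-neuronal genes 3 were higher in LGE (20%, against 4.32% of all genes) and none in CTX, with a median of 2.34 points. Dcx, a microtubule-associated protein of migrating neurons, had 2238 bases in LGE and 0 in CTX (71.7 points), Myt1l had 3997 and 554 (55.3 points) and Stmn2 2540 and 1164 (21.2 points). By fold Myt1l stood at −10.3 points. Tubb3 (3537 and 2019, 4.45 points) and Elavl4 (3099 and 2857, −1.85 points) were broad in both. None of 15 progenitor genes passed the limit either way, with a median of −2.30 points. Sox2 had 2434 and 2141 bases, Nes 3553 and 2918, and Hes1, a Notch target, 1924 and 2749 (−13.6 points).

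Signalling genes of striatal neurons were higher in LGE at 5 of 16 genes (31.25%, against 4.32% of all genes), with a median of 2.21 points. Drd2, the dopamine receptor of the indirect pathway, had 1542 bases in LGE, 0 in CTX, 165 in MGE and 1810 in CGE (55.3 points). Tac1, the substance P precursor, had 1574 and 303 (35.5 points by covered bases and −6.53 by fold). Drd1 (1167 and 335, 16.8 points) and Penk (1028 and 486, 7.77 points) lay within the limit, and Adora2a (1051 and 974) stood at −11.3 points.

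Retinoic acid is made in the LGE during striatal development. Of 17 genes of its pathway 8 were at least 20 points higher in LGE and 1 in CTX. These were 47.1% and 5.88%, against 4.32% and 1.89% of all genes. Aldh1a3, the enzyme that makes retinoic acid in the lateral telencephalon, had 1667 bases in LGE and 843 in CTX (22.4 points). Crabp1, a binding protein, had 1477 and 369 (30.9 points). Among the receptors, Rarb had 1557 and 572 (30.1 points) and Rxrg 1739 and 569 (35.8 points), while Rara (6959 and 4186) and Rarg (3453 and 3459) were broad in both. Cyp26a1, which degrades retinoic acid, was the gene higher in CTX, with 0 and 384 bases (−22.3 points), whereas Cyp26b1, of the same function, had 2183 and 1010 (24.8 points). The fold ranking left 1 of the 17 higher in LGE and 1 in CTX.

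**Figure D4:**
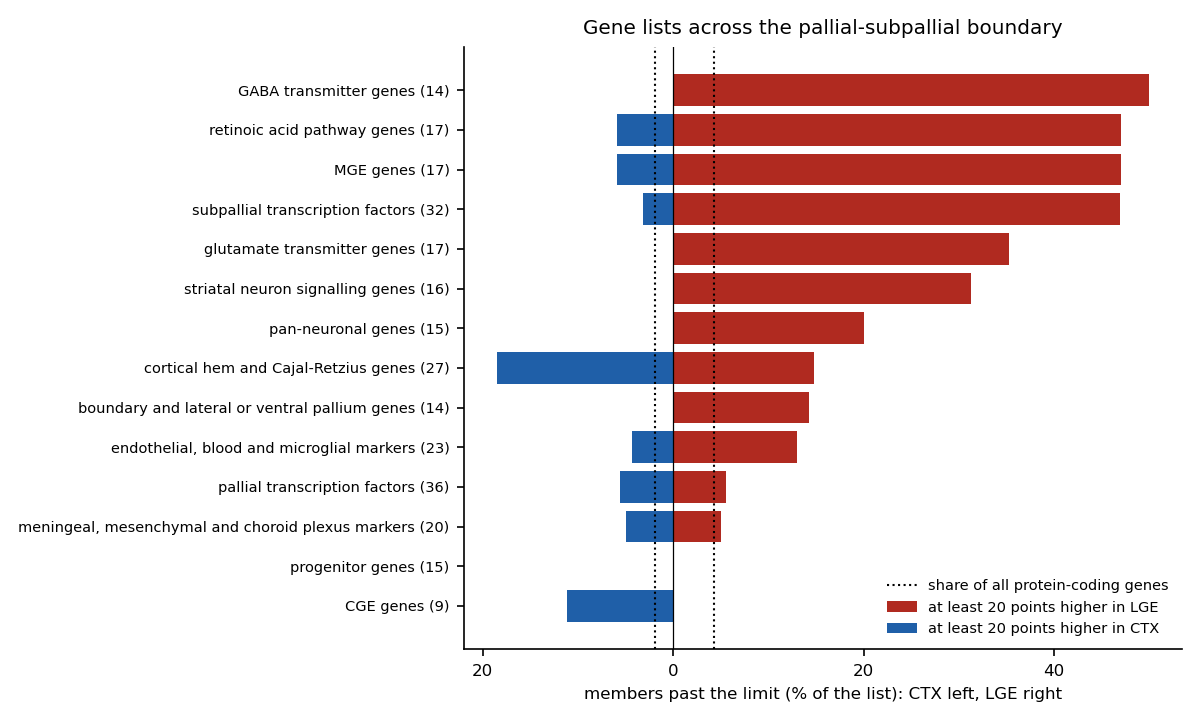
Share of each of 14 gene lists (number of genes in parentheses) at least 20 percentile points higher in LGE (bars to the right) or in CTX (bars to the left), with dotted lines at the share of all protein-coding genes (4.32% and 1.89%). GABA, retinoic acid, MGE and subpallial lists extend to 46.9% or more on the LGE side, and the hem and Cajal-Retzius list extends to 18.5% on the CTX side.

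The cortical hem, a signalling centre at the medial edge of the cortex, held more genes that stood higher in CTX by covered bases than any other of the 14 lists. 5 of the 27 hem and Cajal-Retzius genes were at least 20 points higher in CTX (18.5%) and 4 in LGE (14.8%). The shares of all genes were 1.89% and 4.32%. Wnt8b had 355 covered bases in LGE, 2827 in CTX, 586 in MGE and 1417 in CGE (−61.7 points), and no LGE peak lay within 10 kb of its 5′ end. Wnt3a, the Wnt ligand of the hem, had 0 in LGE, 747 in CTX and 0 in both other lists (−32.7 points). Lmx1a, a LIM homeodomain factor of the hem and roof plate, had 749 and 1503 (−43.6 points). Bmp7 (1502 and 2154, −22.9 points) and Msx1 (1052 and 1160, −20.8 points), a BMP ligand and a BMP target, were the others. By fold the list did not lead, with 2 genes higher in CTX and 1 in LGE. Of these 5 genes Wnt3a alone, which had no LGE base, stayed past the limit (−22.9 points), and the others stood at −7.75 (Wnt8b), −0.75 (Lmx1a), −0.31 (Bmp7) and −2.63 (Msx1).

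The 4 genes of that list higher in LGE were all transcription factors. Ebf2 had 4451 and 371 bases (59.2 points), Barhl2 4720 and 661 (52.5 points), Trp73 3739 and 761 (47.2 points) and Lhx5 1832 and 159 (45.2 points). Trp73 and Ebf2 are known in Cajal-Retzius cells. Reln, which those cells secrete, had 3056 and 1542 bases (11.1 points). In CGE these factors had 4428 (Ebf2), 6191 (Barhl2), 3872 (Trp73) and 5839 (Lhx5) bases. None of these 4 was higher in LGE when ranked by fold, with differences of −16.4 points for Ebf2, −11.4 for Barhl2, −6.78 for Trp73 and −1.06 for Lhx5.

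The boundary and the lateral or ventral pallium were represented by 14 genes. Of these, 2 were higher in LGE (14.3%, against 4.32% of all genes) and none in CTX. Besides Gsx2 this was Tfap2d, with 880 and 0 bases (25.7 points). Sfrp2, a secreted Wnt inhibitor of the antihem, had 2169 bases in LGE and 1462 in CTX (5.97 points). Dbx1, a homeodomain factor of ventral pallial progenitors, had 0 and 156 (−19.1 points). Pax6, Nrg1 (6048 and 4206), Lmo3 (3159 and 2371) and Nr4a2 (3943 and 3769) were broad in both.

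Genes of the other eminences differed between LGE and CTX as well. 8 of 17 MGE genes were higher in LGE (47.1%, against 4.32% of all genes) and 1, Gbx2 (260 and 1162, −35.8 points), in CTX. The share in CTX was 5.88%, against 1.89% of all genes. Nkx2-1, the homeodomain factor that defines the MGE, had 2934 bases in LGE, 0 in CTX, 3262 in MGE and 3804 in CGE. Its highest −log10 q within 5 kb in LGE was 3.52, far below the list's median of 40.0. Lhx6, which Nkx2-1 activates in migrating interneurons, had 3711 in LGE, 451 in CTX, 3057 in MGE and 5920 in CGE. By fold 4 of the 17 were higher in LGE and 2 in CTX, and the latter were Lhx6 (−24.6 points) and Gbx1 (−20.7 points), both higher in LGE by covered bases. None of 9 CGE genes was higher in LGE. Htr3a (0 and 396, −22.5 points) alone was higher in CTX (11.1%, against 1.89% of all genes). Nr2f1 and Nr2f2, the nuclear receptors of the CGE, had 6753 and 5401 bases in LGE and 3234 and 2208 in CTX.

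The 25 genes at the LGE end of the ranking had no covered base in CTX, and none shared a peak with another of the 25. They included homeodomain and other transcription factors (Uncx, Sp9, Nkx2-1, Prdm14, Otp, Pou4f2), receptors of neurotransmitters (Grik3, Gabbr2, Gria1), other genes with roles in neurons (Slc32a1, Dcx, Nefh, Cacna1i, Cntn5, Rxfp3), genes of signalling and matrix (Gdnf, Sulf1, Col8a2) and Amn, Arhgap8, B3galt2, Gpr21, Pcdhga12 and Trank1. Uncx had 3886 bases in LGE, 0 in MGE and 3961 in CGE. Grik3, a kainate receptor subunit, had 2841 in LGE, 2633 in MGE and 3583 in CGE.

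Their peaks were wide and, for most, of low confidence within the list. The highest −log10 q was 5.30 at Uncx, 2.13 at Prdm14, 2.06 at Col8a2 and 4.40 at Gria1, and reached 38.3 at Grik3. The median percentile of the 25 genes was 89.8 in LGE, 18.1 in CTX, 46.0 in MGE and 88.2 in CGE. Ranked by fold, and also by −log10 q, 18 of the 25 were at least 20 points higher in LGE. With no CTX base the CTX percentile is the lowest possible in each ranking, so the direction of these genes was set by their choice.

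**Figure D5:**
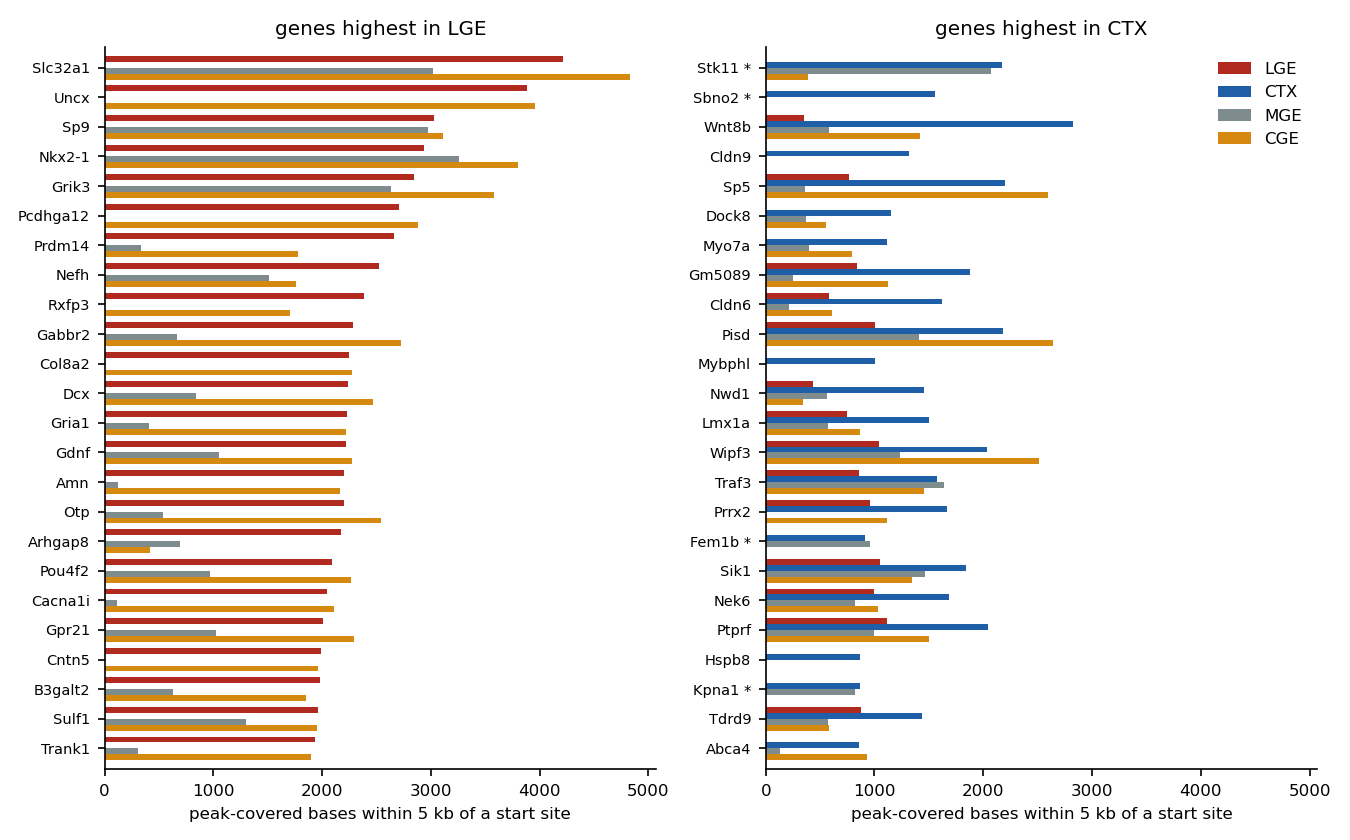
Peak-covered bases within 5 kb of a TSS in the LGE, CTX, MGE and CGE lists (bars) for genes among the 25 with the largest difference toward LGE (left) and toward CTX (right), in rank order from the top. No CTX bar is present on the left, and asterisks mark 4 genes whose window lies beside a missing peak number in the LGE list.

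The 25 genes at the CTX end included Wnt8b, Sp5 and Lmx1a, and the tight junction genes Cldn6 and Cldn9, which share a peak. Sp5 had 767 bases in LGE, 2202 in CTX, 363 in MGE and 2595 in CGE (−54.4 points). Cldn9 had 0 and 1321 (−60.4 points), and Cldn6 583 and 1624 (−49.1 points). Myo7a (0 and 1116), Dock8 (0 and 1151), Mybphl (0 and 1008), Hspb8 (0 and 870) and Abca4 (0 and 860) had no LGE base. At Sik1 (1047 and 1845), Nek6 (996 and 1686), Ptprf (1115 and 2044), Wipf3 (1042 and 2036), Traf3 (858 and 1574), Pisd (1007 and 2179), Tdrd9 (880 and 1435), Nwd1 (436 and 1451), Prrx2 (959 and 1665) and Gm5089 (837 and 1876) a peak was present in both lists.

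4 of the 25, Stk11, Sbno2, Fem1b and Kpna1, were at 0 in LGE beside missing LGE peak numbers, and their difference was not read. Stk11 had 2176 bases in CTX and 2073 in MGE, and Fem1b 915 and 959. A window beside a missing LGE number was found at 18 of the 414 genes higher in CTX (4.35%) and at 1.33% of all genes. In the fold ranking 9 of the 25 were at least 20 points higher in CTX. All of them were among the 10 genes with no LGE base, which include the 4 not read. With no LGE base the LGE percentile is the lowest possible, so the direction of these genes was set by their choice. Cldn6 (43.2 points), Ptprf (33.3 points) and Sik1 (28.1 points) were among those past the limit toward LGE.

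The MGE and CGE lists, which played no part in the ranking, gave the levels of the same genes in other tissue. Of the 948 genes higher in LGE, 865 (91.2%) had a CGE percentile nearer to LGE than to CTX, and 415 (43.8%) an MGE percentile nearer to LGE. Their median percentile was 79.0 in LGE, 43.3 in CTX, 54.1 in MGE and 79.6 in CGE. Of the 414 genes higher in CTX, 90 (21.7%) were nearer to CTX in CGE and 171 (41.3%) in MGE, with medians of 40.9 in LGE, 68.0 in CTX, 45.8 in MGE and 43.6 in CGE. The median peak width was 1240 bp in CGE, near that of LGE, and 563 bp in MGE, near that of CTX, and the part of this in the nearness of LGE to CGE was not tested. Of the 15 subpallial factors higher in LGE, 14 were nearer to LGE in CGE and 12 in MGE. The exception in CGE was Rxrg, with 773 bases. Nearness was not counted over all genes, so these shares have no base to be read against.

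Promoters with a peak in 1 list only were counted over the 2 kb upstream of any TSS. Both lists had a peak at 12678 genes, LGE alone at 551 (2.51%; interval 2.31 to 2.73) and CTX alone at 261 (1.19%; 1.05 to 1.34). A promoter peak in LGE alone often lay beside a CTX peak that did not reach the upstream window, and 289 of the 551 genes had no CTX base within 5 kb. For CTX alone, 141 of 261 had no LGE base within 5 kb. Of the LGE-only promoters 479 (86.9%) also had a peak in CGE and 270 (49.0%) in MGE. Of the CTX-only promoters 90 (34.5%) also had a peak in CGE and 130 (49.8%) in MGE. The shares of all genes with a promoter peak in CGE or MGE were not counted. A −log10 q under 2 was found for 60 of the 551 LGE peaks and 69 of the 261 CTX peaks.

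The LGE-only promoters with the highest −log10 q were of that first kind. Oaz3 (172), Ddx28 (120), Gm20604 (118), B430305J03Rik (110), Micu3 (105), Tubb4a (100.5), Gm10642 (99.5), Leng1 (97.3), Ppp1r37 (95.3) and Doc2g (92.9) all had CTX bases within 5 kb. At Tubb4a, a beta-tubulin gene, 963 bases were covered in LGE and 647 in CTX, and at Oaz3 949 and 647. Whether these CTX bases belonged to the same domain as the LGE promoter peak was not tested. With no CTX base within 5 kb, a set chosen after its values were seen, the 10 highest ran from Grik3 (38.3) to As3mt (19.3) and included Fgf3, Gjd2, Slc32a1, Sp9, Nxph2, Reps2 and Glra3. Among them are a glycine receptor subunit (Glra3), a kainate receptor subunit (Grik3) and the neuronal gap junction gene Gjd2 (1484 bases in LGE, 0 in CTX).

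The CTX-only promoters with the highest −log10 q held no gene of the pallial or hem lists. They were Suv39h2 (40.5), Dnaaf2 (36.1), Cenpb (35.1), Dcp2 (34.5), Ptk7 (32.7), B3glct (32.6), Kpna1 (30.1), Mex3d (29.8), Sfxn1 (29.2) and Rapgef1 (29.2). Suv39h2, Dcp2 and Kpna1 were at 0 in LGE beside a missing LGE number, and the other 7 had LGE bases within 5 kb. Ptk7, a receptor of planar cell polarity, had 1033 bases in LGE and 1205 in CTX. Of the 10 highest with no LGE base within 5 kb, 5 lay beside a missing LGE number (the 3 above, Stk11 and Wdr48). The others, chosen after their values were seen, were Gm13277 (13.3), Gm13275 (11.7), Slc44a3 (9.98), Dand5 (8.92) and Xlr3b (7.63).

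Classes set by gene symbol patterns were counted in the same way. Of 52 genes of GABA, glycine and glutamate receptors 14 were higher in LGE (26.9%, against 4.32% of all genes) and none in CTX. Of 132 potassium, sodium and calcium channel genes 32 were higher in LGE (24.2%) and 5 in CTX (3.79%, against 1.89%). Cacna1i, a T-type calcium channel, had 2043 and 0 bases. Of 12 LIM homeobox genes 6 were higher in LGE (50.0%) and 1, Lmx1a, in CTX (8.33%). Of 39 neurogenic bHLH genes 10 were higher in LGE (25.6%) and 2 in CTX (5.13%). In the fold ranking the receptor class had 17 genes higher in LGE and 1 in CTX, and the channel class 17 and 8.

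Classes of broad expression had median differences near 0. None of 78 mitochondrial ribosomal protein genes and 1 of 81 cytosolic ones passed the limit, and the median difference was −3.85 and −0.74 points. Of 394 Zfp zinc finger genes 10 were higher in LGE (2.54%, against 4.32% of all genes) and 3 in CTX (0.76%, against 1.89%). Solute carriers stood at the share of all genes on the LGE side, with 16 of 371 (4.31%). They stood above it on the CTX side, with 14 (3.77%, against 1.89% of all genes).

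The letters of the promoters differed little between the ends. In the 250 bases upstream of the 5′ end, TAATTA was found at 28 of the 948 genes higher in LGE (2.95%), 10 of the 414 higher in CTX (2.42%), and 5.02% of all promoters of this length, or 2.64% of those of genes with a peak in either list. CANNTG was found at 60.7% of the 948, 62.1% of the 414 and 64.1% of all, or 58.8% of those of genes with a peak in either list. Among the 32 subpallial factors 13 held CANNTG and none held TAATTA, and among the 36 pallial factors 21 and 2 did. The median ratio of observed to expected CpG was 0.563 for the 948 genes and 0.477 for the 414. It was 0.674 for genes with a peak in either list and 0.487 for all genes. Such a match is a description of letters and not of binding.

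Among the 200 genes with the most covered bases, 109 were shared by LGE and CTX, 146 by LGE and CGE, and 113 by LGE and MGE. CTX shared 94 with CGE and 130 with MGE. The 91 genes in the top 200 of LGE and not of CTX (0.415% of all genes; the same count and share apply the other way) included the subpallial factors Dlx6, Foxp4, Meis1 and Six3, the pallial factor Lhx9, and the nuclear receptors Nr2f1 and Nr2f2. The 91 in the top 200 of CTX and not of LGE included the Notch ligands Dll1 and Jag1 and the Notch modifier Lfng, the Wnt genes Wnt7b and Fzd8, the pallial factors Fezf2 and Nfix, the subpallial factor Sp8, and the factors Satb1, Sox4, Sox11 and Zic2. A further 10 of the 91 were genes of the mitochondrial genome. They do not lie in nuclear chromatin, so their coverage is not read as H3K4me3. In all, 8 subpallial factors were in the top 200 of LGE and 3 in that of CTX, against 7 and 8 pallial factors.

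Markers of other cells were mostly low in both lists. Of 23 endothelial, blood and microglial markers, 3 were higher in LGE (13.0%, against 4.32% of all genes) and 1 in CTX (4.35%, against 1.89%). None was in the top 10% in either list, and 13 were at 0 in each. The defining markers Pecam1, Cdh5, Ptprc and Csf1r were at 0 in LGE and CTX, while the endothelial factors Sox17 (1959 and 801) and Sox18 (1390 and 0) were higher in LGE. Of 20 meningeal, mesenchymal and choroid plexus markers, 1 was higher in LGE, Foxc1 (1448 and 511), and 1 in CTX, Col1a1 (0 and 573). Each is 5.00% of that list. Ttr, Lum and Col3a1 were at 0 in both. Otx2, which choroid plexus and ventral progenitors express, was broad in LGE (3320 bases) and had 1494 in CTX (13.4 points).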

How the data were processed

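H3K4me3 CUT&Tag was done in LGE, CTX, MGE and CGE with 2 biological replicates each, some sequenced in several runs. Per the methods and labels, the authors aligned reads with Bowtie2 to GRCm38/mm10, removed blacklisted reads and PCR duplicates (Picard), merged replicates with SAMtools, de-duplicated the result and ran MACS for broad peaks; its version and threshold are not given in the sources used here. The 4 deposited lists hold 9 columns with no header. They give peak positions, the caller's score, the fold enrichment as a ratio to the caller's background, and −log10 p (not used) and −log10 q, all as deposited. Running peak numbers are missing in each list, and what was there is not analysed here. 0 columns belonged to samples outside the series, and replicate-level values and depths were not used here.

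Gene models were the 21951 protein-coding genes of GENCODE M21 (GRCm38). Covered bases were summed within 5 kb of every TSS of a gene and ranked by mid-rank within each list. A gene was called higher past 20 points, a limit of size and not a test. Promoters were the 2 kb upstream of any TSS, with an overlap of at least 1 bp. Named genes were the 25 at each end, the 10 per direction with the highest within-list percentile of −log10 q among promoters marked in 1 list, every member of 14 gene lists, and 3 genes either side of each limit. The members, the lists and 24 symbol classes were chosen with earlier results of these data known, and lists share genes. Printed promoter sequences came from the RefSeq table of GRCm38.p6, in which all 5 genes matched, and motif shares from the GRCm38.p6 genome at GENCODE 5′ ends. Python 3.11.15, numpy 2.4.6, pandas 2.3.3, scipy 1.17.1 and matplotlib 3.10.9 were used. The interval arithmetic and the ranking were tested on simulated data. Shares carry Wilson 95% intervals, which cover the counting of genes only. The values of some genes are not reported here, although counts over lists include them.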

Additional observations from a re-analysis of the deposited data

How the results depend on the processing

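Of 81 values recomputed under alternatives, 64 stayed within 1.5 times the reported count and 17 did not. With the highest fold in place of covered bases, 1240 genes were higher in CTX (414 by covered bases), 1 subpallial factor was higher in LGE (15) and 169 genes were in the top 200 of LGE and not of CTX (91). With the highest −log10 q, added after the data were seen, the first 2 became 848 and 6. With percentiles among genes with a peak in either list, 853 genes were higher in CTX. At limits of 10 and 30 points the LGE side had 2101 and 448 genes and the CTX side 1996 and 72. At 30 points 1 pallial factor passed toward CTX and 1 toward LGE. With a window of 2 kb either side, 1 pallial factor was higher in CTX (2 at 5 kb). Promoters in LGE alone numbered 289 and in CTX alone 141 where no peak of the other list lay within 5 kb (551 and 261 otherwise). With equal list sizes by −log10 q these were 860 and 154, and with the minimum width of the narrowest LGE peak 156 in CTX alone. Leaving out genes beside missing peak numbers, also added after the data were seen, gave 932 and 392 genes. No paired analysis was possible because each list merges the replicates of its region, and for the same reason no replicate could be left out. The cause of these changes was not tested.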

Other observations

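Of 44 collagen genes 10 were at least 20 points higher in LGE (22.7%, against 4.32% of all genes) and 2 in CTX (4.55%, against 1.89%). The latter were Col1a1 and Col18a1 (1180 bases in LGE, 1298 in CTX). Col8a2 (2250 and 0) and Col12a1 (1969 and 473) were among the 10 higher in LGE. Of 29 Wnt ligand and Fzd receptor genes 6 were higher in LGE (20.7%) and 3 in CTX (10.3%). Of 71 axon guidance genes 6 were higher in LGE (8.45%) and 2 in CTX (2.82%). Of 39 Hox genes, which are not expressed in the forebrain, 4 were higher in LGE (10.3%) and none in CTX.

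Of the 1780 LGE peaks that overlapped no CTX peak (10.3% of the list), the median width was 524.5 bp and the median −log10 q 3.09. The 5225 CTX peaks that overlapped no LGE peak (24.4%) had a median width of 209 bp and a median −log10 q of 2.32, and 16.0% of them lay within 2 kb of a protein-coding TSS, against 39.9% of the LGE ones.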
